A study of Mus musculus with 24 samples.

Results

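The simple-epithelium keratins of the bile duct were followed through intrahepatic cholangiocytes, the epithelial cells that line the bile ducts inside the liver. The members were taken by gene symbol, from a list drawn up with earlier results of these data known, and are Krt7, Krt8, Krt18, Krt19, Krt20 and Krt23, 6 of the 49315 genes in each count table. All 6 passed the expression filter in each fit. The study compared dnTGFB mice, whose dominant-negative TGF-β receptor II makes them a model of primary biliary cholangitis (PBC), with wild-type (WT) mice, each with and without secretin, a gut hormone that acts on bile duct cells.

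The groups, in males and again in females, were dnTGFB mice given secretin, untreated dnTGFB mice, WT mice given secretin and untreated WT mice. Osmotic minipumps, renewed after 1 month, gave 4 µg of secretin per kg daily over 8 weeks, and these mice were killed at 40 weeks. Untreated WT mice were killed at 32 weeks, so secretin and the difference in age cannot be told apart; no label states how old the untreated dnTGFB mice were. The labels do not name the promoter of the transgene; in the dnTGFBRII mouse in general use the transgene is driven by a T-cell (CD4) promoter, not a biliary one. By the study's description, each of the 8 groups was 1 pool of cells from 6 to 8 mice, isolated by antibody capture on magnetic beads, and poly(A) RNA from it was sequenced as 3 libraries. Every p-value below therefore measures how far libraries given to the same group differ and not how far mice differ. Several libraries stood apart from their group, as given below. Whether all 3 libraries of each group came from 1 pool was not tested.

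Keratins are intermediate filament proteins that build filaments only as pairs of an acidic type I and a basic type II chain. Krt8 (type II) and Krt18 (type I) are the primary pair of simple epithelia and the keratins of hepatocytes, while Krt7 (type II) and Krt19 (type I) are added in bile duct cells and are the usual markers that separate them from hepatocytes. Krt20 is a type I keratin of gut surface epithelium and urothelium, and Krt23 is a type I keratin that mouse liver is known to induce under stress.

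In the deposited tables (GRCm38 coordinates) the 3 genes on chromosome 15 were Krt7 (ENSMUSG00000023039, 101411043 to 101430313, plus strand), Krt8 (ENSMUSG00000049382, 101996711 to 102004342, minus strand) and Krt18 (ENSMUSG00000023043, 102028216 to 102032026, plus strand). Krt8 and Krt18 lie head to head, with 23873 bases between them. The other 3 were on the minus strand of chromosome 11, namely Krt20 (ENSMUSG00000035775, 99428403 to 99438150), Krt23 (ENSMUSG00000006777, 99477974 to 99493137) and Krt19 (ENSMUSG00000020911, 100140810 to 100148665). RefSeq promoter windows (GRCm38.p6) were matched by symbol for 5 of the 6 genes, without Krt19. The 250 bases before the start are shown for Krt8 and Krt18, whose levels moved together in every library, and for Krt20, whose levels moved apart from them. They run from 5′ to 3′ on the strand of the gene, at chr15:102004343-102004592 (minus) for Krt8, chr15:102027966-102028215 (plus) for Krt18 and chr11:99438154-99438403 (minus) for Krt20, and capitals mark a TATA box.
Krt8: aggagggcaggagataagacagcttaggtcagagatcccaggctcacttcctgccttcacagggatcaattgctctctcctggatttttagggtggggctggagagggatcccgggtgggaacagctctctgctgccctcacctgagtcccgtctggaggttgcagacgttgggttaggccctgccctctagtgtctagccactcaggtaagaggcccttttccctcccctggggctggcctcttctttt
Krt18: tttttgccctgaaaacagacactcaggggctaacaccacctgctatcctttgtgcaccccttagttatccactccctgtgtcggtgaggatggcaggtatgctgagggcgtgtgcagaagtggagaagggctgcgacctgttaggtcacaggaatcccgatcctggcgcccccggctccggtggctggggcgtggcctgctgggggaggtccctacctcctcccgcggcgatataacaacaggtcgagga
Krt20: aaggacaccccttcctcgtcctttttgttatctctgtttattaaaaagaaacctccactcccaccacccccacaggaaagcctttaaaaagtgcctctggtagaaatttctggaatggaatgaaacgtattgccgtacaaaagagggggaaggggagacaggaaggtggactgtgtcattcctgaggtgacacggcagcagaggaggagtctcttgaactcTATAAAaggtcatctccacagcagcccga
Searched on both strands, TATAAA was found in 12.4% of 32851 promoter windows, and among the 5 matched keratins in that of Krt20 alone, at bases -29 to -24 from its start. GGGCGG, the SP1 box, was found in 32.7% of windows and here in that of Krt7, where it stood at 4 places that did not overlap. The AP-1 letters TGANTCA (6.75% of windows), the grainyhead-like letters AACCNGTT (1.79%) and the ETS core CCGGAAG (6.91%) were in none of the 5 windows. GC content was 58.0% before Krt8, 60.4% before Krt18 and 48.0% before Krt20.

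Total counts ran from 1429218 to 104003184 per library, the lowest being male dnTGFB library 3. Several libraries stood apart from their group, by values that bear on the keratins. The genotype label went against the title in 12 libraries (WT secretin labelled as transgenic, untreated dnTGFB as wild-type), and titles were followed. The summed level of 8 heart muscle markers was 58308 to 72925 CPM (counts scaled to a common library total, with TMM factors) in 4 female libraries (WT secretin 2 and 3, dnTGFB 1 and 2) and at most 2544 CPM in the other 8, and in males it was 10515 CPM in dnTGFB library 3 and no higher than 836 CPM in the 11 others. Ddx3y, a Y-linked gene, reached 57.2 to 102 CPM in these same 4 female libraries, while the 8 others had at most 6.64 CPM. Xist, which female cells transcribe, was at 0.16 to 1.02 CPM in male dnTGFB secretin libraries, 7.59, 9.67 and 1.07 CPM in male dnTGFB, 34.3, 36.8 and 29.6 CPM in male WT secretin and 0.86 to 1.39 CPM in male WT libraries. These male libraries enter the male secretin and interaction results below, and the part of any female RNA in them was not tested. By chi-square per gene, female dnTGFB secretin library 1 resembled female WT library 2 (1.16) and female dnTGFB secretin library 3 resembled female WT secretin library 1 (1.42) more than libraries of their own group. Both values lie within the 1.10 to 1.44 between male WT secretin or male dnTGFB secretin libraries and their closest fellows. The cause of this likeness was not tested. Female dnTGFB library 3 was nearest to female WT library 1 (4.85, against 47.5 to its own group), female dnTGFB library 2 to female WT secretin library 3 (3.25, against 3.79), male dnTGFB library 3 to a female library, dnTGFB 1 (34.3, against 78.4), and male WT library 1 to male dnTGFB library 2 (7.30, against 40.0). The bile duct label was checked on 18 markers other than keratins, such as Epcam, Sox9, Spp1 and Cldn7: none was at 0 except Cftr and Onecut1 in male dnTGFB library 3, and their sum ran from 181 CPM in female WT secretin library 2 to 5852 CPM in male dnTGFB secretin library 1. The 10 hepatocyte markers such as Alb summed to 611 to 23884 CPM, so hepatocyte transcripts were present in every library.

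Per unit of length, the pool of the 6 keratins was mostly Krt8 and Krt18 in every library. Levels divided by exonic length (CPM per kilobase) gave Krt8 34.5% to 47.4% of the pool and Krt18 37.4% to 46.1%. Krt19 followed with 7.39% to 21.5%, then Krt23 with 0.844% to 5.21%, Krt7 with 0.614% to 2.72% and Krt20 with 0.028% to 1.63%. The shares depend on the length used: with each gene's longest coding transcript in place of the union of its exons, the median over the 24 libraries was 1.55% against 0.884% for Krt7, 13.8% against 11.5% for Krt19 and 39.8% against 42.8% for Krt8.

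The Krt8 to Krt18 ratio was nearly the same in all libraries although the levels themselves were not. Krt8 spanned 27.2 to 1332 CPM over the 24 libraries, a 48.9-fold range, and Krt18 spanned 23.8 to 1055 CPM, a 44.3-fold range. Their per-length ratio stayed between 0.888 and 1.15, with a median of 0.999 (0.946 with transcript lengths). The ratio of all type II to all type I chains had a wider range, 0.594 to 0.922, because Krt18, Krt19, Krt20 and Krt23 are all counted against Krt8 and a small share of Krt7. Krt19 was looser towards Krt18 (ratio 0.168 to 0.553, a 3.30-fold range), and Krt20 towards Krt19 was the loosest of the ratios computed, with a 57.4-fold range.

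**Figure D1:**
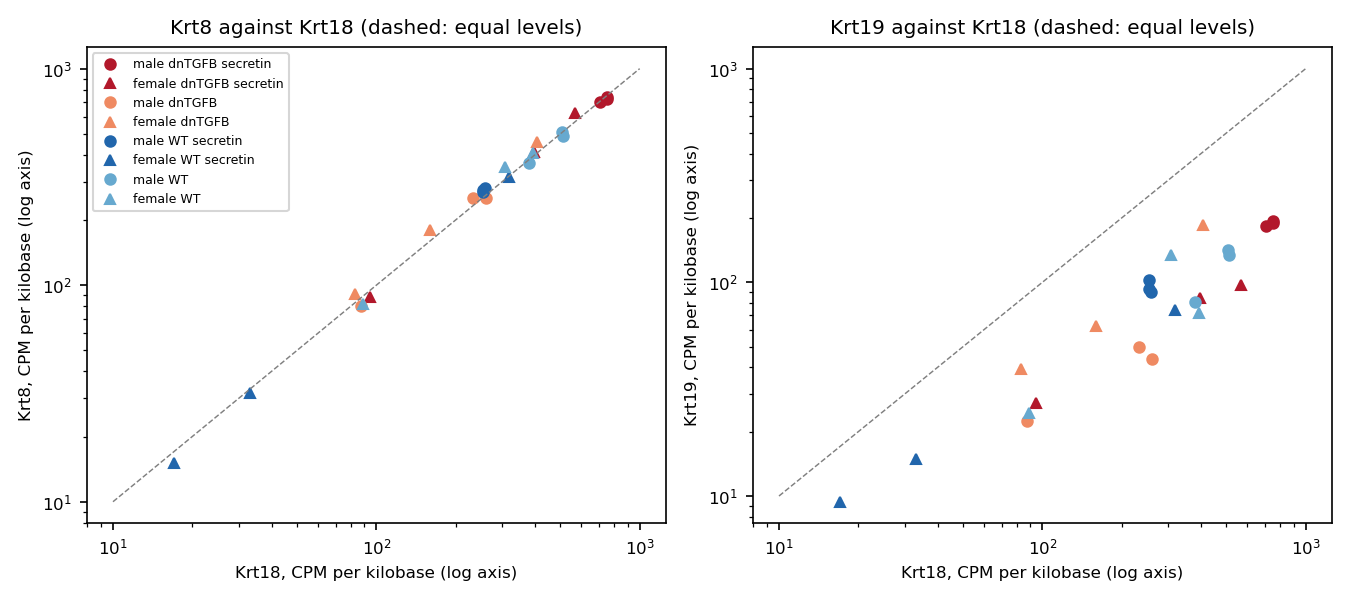
Levels of Krt8 (left) and Krt19 (right) against Krt18 in 24 libraries, in CPM per kilobase on log axes; circles are male and triangles female libraries, colours are groups, and the dashed line marks equal levels. Krt8 lies along the line over the whole range, with ratios of 0.888 to 1.15, while Krt19 lies below it with ratios of 0.168 to 0.553.

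By group mean, male dnTGFB secretin cholangiocytes were highest for every one of the 6 genes. Their libraries did not overlap those of the next group, male WT, for Krt7 (91.0 ± 3.88 against 63.0 ± 11.3 CPM), Krt8 (1302 ± 31.3 against 819 ± 139 CPM), Krt18 and Krt19 (SD, n = 3). For Krt19, however, the highest female dnTGFB library (345 CPM) was above the lowest male dnTGFB secretin library (342 CPM). For Krt20 and Krt23 the top 2 groups overlapped, and so did every other pair of neighbouring groups for all 6 genes. The lowest group mean was that of male dnTGFB for Krt7 and Krt23 and that of female WT secretin for Krt8, Krt18, Krt19 and Krt20.

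**Figure D2:**
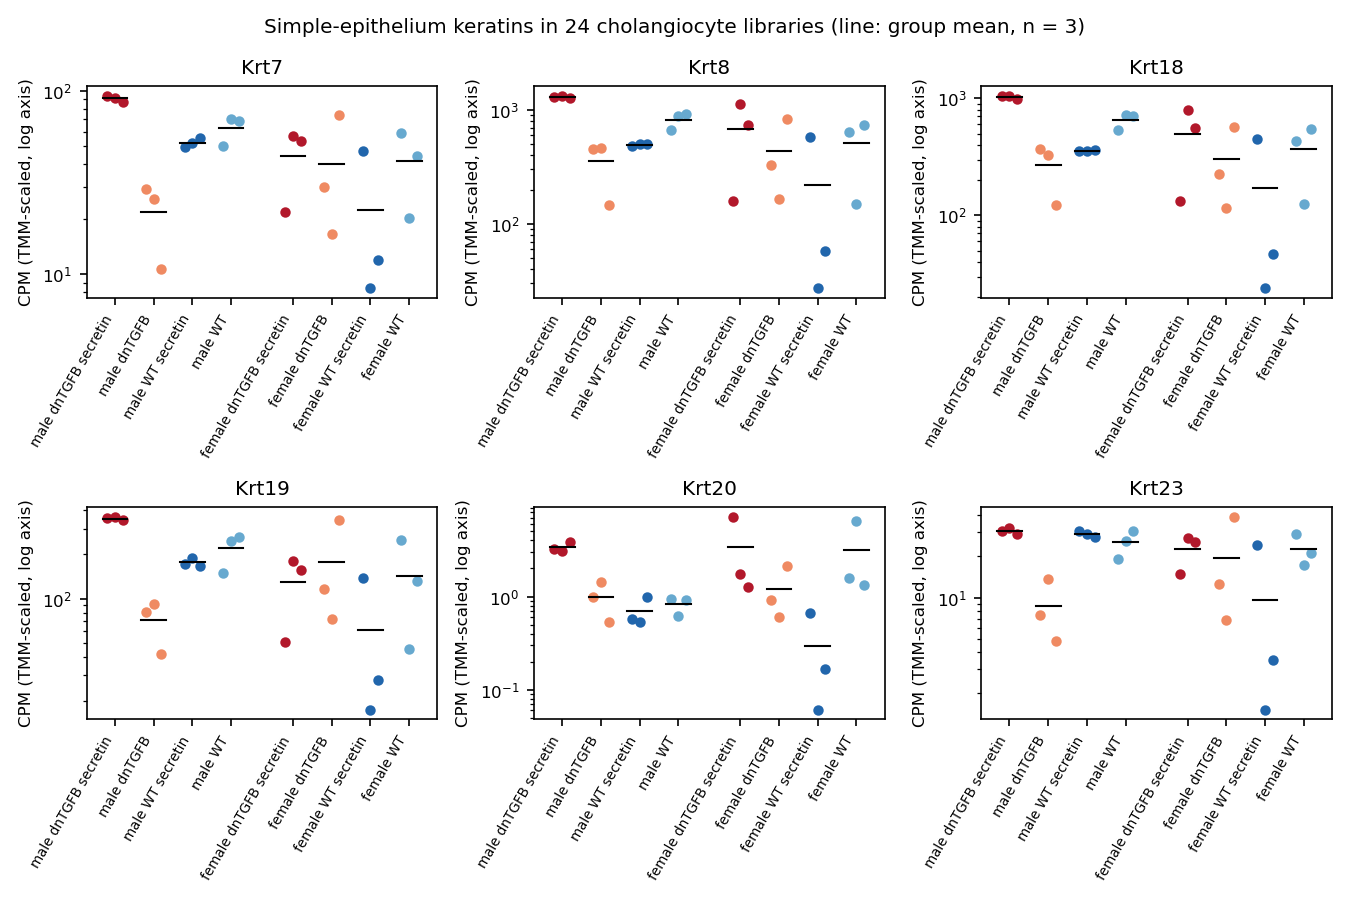
Level of each keratin in 24 libraries, in CPM with TMM scaling on log axes, by group; points are the 3 libraries of a group and lines are group means. The male dnTGFB secretin libraries are at the top for Krt7, Krt8 and Krt18, and for Krt19 at the top of the male groups. The male dnTGFB libraries are at or near the bottom of the male groups for all but Krt20. The 3 libraries of a female group lie far apart.

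The comparison of male dnTGFB with WT cholangiocytes asks what the PBC model does to the duct keratins without treatment. Krt7, Krt8, Krt18, Krt19 and Krt23 fell in dnTGFB, by 1.19 to 1.58 on the log2 scale, and Krt20 did not pass the test. Of all 18777 genes tested, 8.46% passed as lower and 17% passed in either direction, a background that 1 library can move: leaving out each in turn, this comparison called 1244 (without WT library 3) to 6642 genes (without dnTGFB library 3). Krt19, the type I duct marker, had 81.2, 92.1 and 41.7 CPM in dnTGFB libraries and 149, 249 and 262 CPM in WT libraries. All 3 dnTGFB libraries were below all 3 WT libraries, and dnTGFB library 3 was the lowest of all. The log2 fold change was -1.58 ± 0.28 (SE, n = 3 each; edgeR's quasi-likelihood test, Benjamini-Hochberg adjusted p = 0.00587). Krt7, the type II duct marker, had 29.2, 25.8 and 10.7 CPM in dnTGFB libraries, against 50.0, 70.4 and 68.7 CPM in WT libraries. These groups did not overlap either, and the log2 fold change was -1.45 ± 0.26 (edgeR adjusted p = 0.00628).

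The primary pair of simple epithelia was lower in the same comparison. Krt8 had 456, 458 and 145 CPM in male dnTGFB libraries and 660.0, 879 and 918 CPM in male WT libraries. Krt18 had 366, 325 and 123 CPM in dnTGFB libraries, against 534, 718 and 709.7 CPM in WT libraries. Both were lower in every dnTGFB library than in any WT library, with log2 fold changes of -1.19 ± 0.35 (edgeR adjusted p = 0.0404) for Krt8 and -1.24 ± 0.33 (adjusted p = 0.0255) for Krt18. Krt23 had 7.48, 13.6 and 4.82 CPM in dnTGFB libraries, against 19.2, 26.1 and 30.8 CPM in WT libraries, again without overlap (-1.44 ± 0.28, edgeR adjusted p = 0.00758). Krt20 was near the limit of detection, with 9, 16 and 1 counts in dnTGFB libraries and 21, 15 and 24 counts in WT libraries. Its levels of 0.990, 1.42 and 0.535 CPM in dnTGFB overlapped the 0.950, 0.616 and 0.928 CPM in WT (0.42 ± 0.40, edgeR adjusted p = 0.477). For comparison, 21% of all genes had all 3 dnTGFB libraries below all 3 WT libraries.

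Bile duct genes other than keratins were lower too. Of the 18 bile duct markers, 14 fell in male dnTGFB, with a median log2 fold change of -1.39 over the list, beside -1.34 over the 6 keratins and 0.01 over all genes tested. Anxa13, an annexin of epithelial membranes, fell by 2.16, Cldn7, a tight junction protein, by 2.04 and Epcam, the epithelial adhesion molecule, by 1.78 on the log2 scale. The marker sum was 1151, 1211 and 681 CPM in dnTGFB libraries and 2441, 3794 and 3799 CPM in WT libraries. In bulk RNA, fewer bile duct cells and less RNA per cell cannot be told apart. Hepatocyte markers summed to 23884, 22649 and 3169 CPM in dnTGFB libraries and 14369, 2910 and 2882 CPM in WT, and mitochondrial genes took 55.1%, 55.0% and 11.4% of counts in dnTGFB, against 42.8%, 9.73% and 9.75% in WT. The part of either in the keratin result was not tested. Without WT library 1 and dnTGFB library 3 the same 5 keratins were called, with log2 fold changes from -0.97 (Krt8) to -1.55 (Krt19). In an edgeR fit of the 6 libraries of these groups alone no keratin was called, and no gene of 16879 was, with 2860 at an unadjusted p under 0.05.

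Set against Epcam within each library, Krt8 and Krt19 of male dnTGFB were not below those of WT. The Krt8 to Epcam ratio was 4.67 to 8.61 in dnTGFB libraries and 4.77 to 5.70 in WT libraries, and the Krt19 to Epcam ratio was 1.34 to 1.73 in dnTGFB and 1.29 to 1.37 in WT, so both overlapped. The Krt20 to Epcam ratio was the exception, at 0.0172 to 0.0267 in dnTGFB and 0.0033 to 0.0082 in WT, though in dnTGFB library 3 it rests on 1 count.

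Secretin in male dnTGFB mice went with higher levels of all 6 keratins. Of all genes, 10.1% passed as higher and 22.6% in either direction, and 1048 (without dnTGFB secretin library 1) to 7247 genes (without dnTGFB library 3) were called with 1 library left out. Krt19 had 353, 359 and 342 CPM in dnTGFB secretin libraries, against 81.2, 92.1 and 41.7 CPM in untreated dnTGFB libraries, a 4.72-fold difference (log2 2.24 ± 0.29, edgeR adjusted p = 0.000859). Krt7 had 94.3, 92.0 and 86.8 CPM in dnTGFB secretin libraries, against 29.2, 25.8 and 10.7 CPM in dnTGFB (1.96 ± 0.27, edgeR adjusted p = 0.00119). The secretin libraries lay close together and well above every untreated one for both duct markers. Krt8 had 1303, 1332 and 1269.7 CPM with secretin, against 456, 458 and 145 CPM without (1.84 ± 0.36, edgeR adjusted p = 0.00803), and Krt18 had 1055, 1054 and 993 CPM with secretin, against 366, 325 and 123 CPM without (1.89 ± 0.33, adjusted p = 0.00476).

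The scarcer type I keratins rose as well. Krt23 had 30.6, 32.1 and 28.9 CPM in male dnTGFB secretin libraries, against 7.48, 13.6 and 4.82 CPM in dnTGFB (1.69 ± 0.28, edgeR adjusted p = 0.0035). Krt20 had 101, 87 and 125 counts, or 3.27, 3.06 and 3.83 CPM, in dnTGFB secretin libraries, against 0.990, 1.42 and 0.535 CPM in dnTGFB (1.59 ± 0.39, edgeR adjusted p = 0.0186). All 6 genes had every secretin library above every untreated library, as did 24.6% of all genes. Of the 18 bile duct markers, 16 rose with a list median of 2.28, beside 1.87 for the keratins and -0.05 for all genes, and their sum was 5852, 5729 and 5704 CPM with secretin, against 1151, 1211 and 681 CPM without. Sctr, the secretin receptor of bile duct cells, rose by 2.70 ± 0.63 (edgeR adjusted p = 0.0165), and Cftr, the chloride channel that secretin opens, by 2.46 ± 0.46 (adjusted p = 0.0068). Set against Epcam, all 6 keratins were lower in every secretin library than in any untreated dnTGFB library. Epcam itself rose by 2.61 ± 0.24, so this says only that the keratins rose by less than Epcam. The share of all genes that were lower relative to Epcam was not computed. The Krt8 to Epcam ratio was 4.35 to 4.57 with secretin and 4.67 to 8.61 without. That of Krt19 was 1.18 to 1.23 with and 1.34 to 1.73 without, and that of Krt7 0.3007 to 0.3155 with and 0.3448 to 0.5375 without. Hepatocyte markers summed to 3656 to 3736 CPM with secretin and 3169 to 23884 CPM without, and mitochondrial genes took 5.50%, 5.31% and 5.66% of counts with secretin, against 55.1%, 55.0% and 11.4% without; the part of either in the keratin result was not tested. Without male WT library 1 and male dnTGFB library 3 all 6 were still called, at log2 1.45 to 1.99, while a fit of the 6 libraries of these groups alone called only Krt19. This comparison and the one before it share the untreated dnTGFB libraries, so they are not independent.

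**Figure D3:**
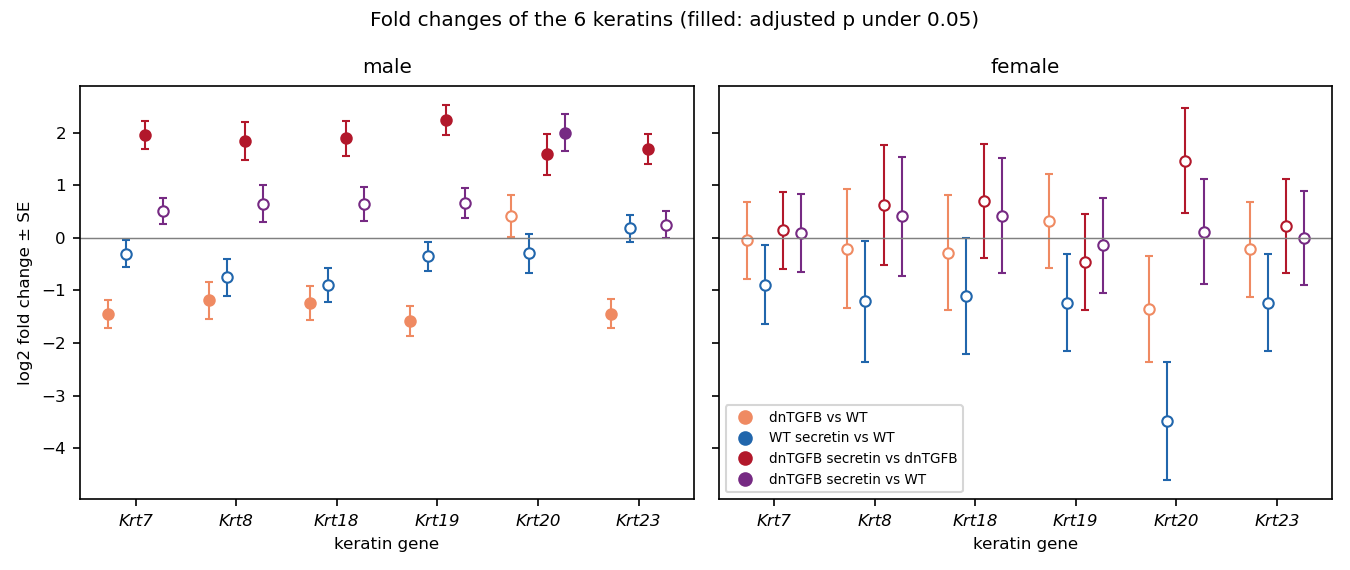
Log2 fold changes of the 6 keratins with their SE in males (left) and females (right) for 4 comparisons; filled points passed an adjusted p of 0.05 and open points did not. In males 5 keratins are below 0 in dnTGFB against WT and 6 above 0 in dnTGFB secretin against dnTGFB, and in females all points are open.

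In male WT mice secretin went with no keratin change that passed the test. The fit called 6.22% of all genes, and 2.67% of all genes were called lower; with 1 library left out it called 332 (without WT secretin library 2) to 5963 genes (without dnTGFB library 3). At an unadjusted p under 0.05 there was 1 keratin, Krt18, and DESeq2 called 1 and limma-voom 0. Krt18 had 355, 356 and 363 CPM in WT secretin libraries, against 534, 718 and 709.7 CPM in WT (-0.90 ± 0.32, edgeR adjusted p = 0.136). Krt8 had 485, 497 and 505 CPM in WT secretin libraries, against 660.0, 879 and 918 CPM in WT (-0.75 ± 0.35, edgeR adjusted p = 0.252). For both, every secretin library was below every WT library, as for 20% of all genes. Krt7 was at 49.4, 51.7 and 55.1 CPM with secretin and 50.0, 70.4 and 68.7 CPM without, Krt19 at 173, 189 and 168 CPM with and 149, 249 and 262 CPM without, and Krt23 at 30.6, 29.1 and 27.9 CPM with and 19.2, 26.1 and 30.8 CPM without. These 3 overlapped between the groups, as did Krt20 at 0.581, 0.531 and 0.978 CPM with secretin and 0.950, 0.616 and 0.928 CPM without. Without male WT library 1 and male dnTGFB library 3, 4 keratins were called lower, at log2 -1.02 for Krt18, -0.89 for Krt8, -0.56 for Krt19 and -0.45 for Krt7.

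The make-up of the pool nevertheless differed between these groups, within libraries and so without regard to scaling. Krt18 took 38.6% to 39.5% of the pool in male WT secretin libraries and 42.7% to 45.0% in WT libraries. Krt19 took 13.8% to 15.5% with secretin and 9.51% to 11.9% without, and Krt23 took 2.72% to 3.05% with secretin and 1.435% to 1.66% without. The Krt8 to Krt18 ratio was 1.06 to 1.08 with secretin and 0.950 to 1.00 without. In each case the 3 secretin libraries lay outside the range of the 3 WT libraries, and no test was made of these shares. Hepatocyte markers, whose cells carry Krt8 and Krt18, summed to 13698 to 14577 CPM with secretin and 2882 to 14369 CPM without, and their part was not tested.

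**Figure D4:**
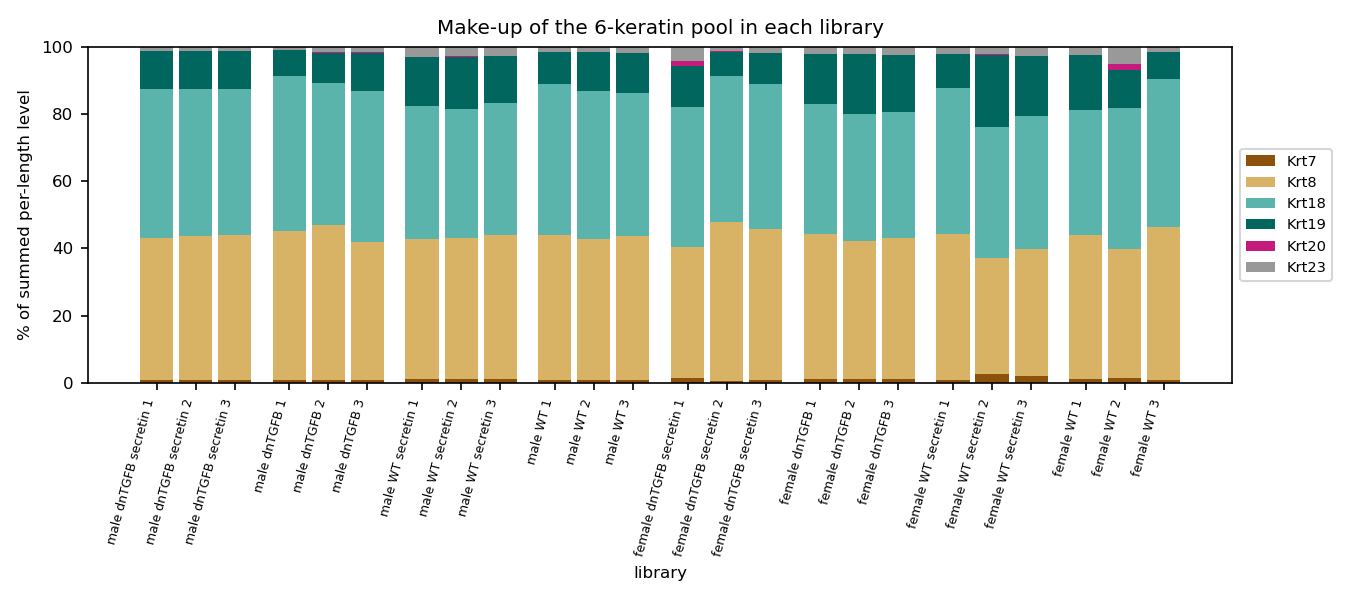
Share of each keratin in the summed per-length level of the 6, in % for each of the 24 libraries, by group. Krt8 and Krt18 fill most of each bar, Krt19 is widest in female WT secretin library 2 at 21.5%, and Krt20 is visible at 1.63% in female dnTGFB secretin library 1 and 1.57% in female WT library 2.

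Against untreated male WT, the dnTGFB secretin libraries were called higher for Krt20 only, in a comparison where 1.88% of genes passed as higher and 4.34% in either direction, or 305 (without dnTGFB secretin library 2) to 5585 genes (without dnTGFB library 3) with 1 library left out. Krt20 had 3.27, 3.06 and 3.83 CPM in dnTGFB secretin and 0.950, 0.616 and 0.928 CPM in WT (log2 2.00 ± 0.35, edgeR adjusted p = 0.00862). Krt7, Krt8, Krt18 and Krt19 also had all 3 dnTGFB secretin libraries above all WT libraries, as did 25.3% of all genes, with log2 differences of 0.51 ± 0.25, 0.65 ± 0.35, 0.64 ± 0.32 and 0.66 ± 0.28 that did not pass (edgeR adjusted p = 0.306, 0.349, 0.311 and 0.22). Krt23 overlapped (0.25 ± 0.26). Without the same 2 libraries 5 keratins were called higher, all but Krt23. Epcam had 289 to 299 CPM in dnTGFB secretin and 116 to 191 CPM in WT. Relative to Epcam, the order turned for Krt7, Krt8, Krt18 and Krt19 but not for Krt20. Epcam had a log2 difference of 0.82 ± 0.23, so the turn says only that these 4 differed by less than Epcam. The share of all genes whose order turned was not computed. The Krt8 to Epcam ratio was 4.35 to 4.57 in dnTGFB secretin and 4.77 to 5.70 in WT, and that of Krt19 was 1.18 to 1.23 in dnTGFB secretin and 1.29 to 1.37 in WT. The Krt7 ratio was 0.3007 to 0.3155 in dnTGFB secretin and 0.3597 to 0.4318 in WT, and that of Krt18 was 3.44 to 3.61 in dnTGFB secretin and 3.72 to 4.61 in WT. Krt23, which overlapped in CPM, had a ratio of 0.1003 to 0.1099 in dnTGFB secretin and 0.1415 to 0.1657 in WT. The Krt20 ratio was 0.0105 to 0.0133 in dnTGFB secretin and 0.0033 to 0.0082 in WT.

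The secretin effect differed between genotypes in males for all 6 keratins. The interaction, the log2 change with secretin in dnTGFB minus that in WT, was 2.79 ± 0.46 for Krt18 (edgeR adjusted p = 0.00465), 2.59 ± 0.50 for Krt8 (0.0085), 2.59 ± 0.40 for Krt19 (0.00311) and 2.26 ± 0.37 for Krt7 (0.00408). It was 1.87 ± 0.53 for Krt20 (0.0386) and 1.51 ± 0.38 for Krt23 (0.0254). Of all genes, 8.1% passed as higher and 15.6% in either direction, or 1149 (without dnTGFB secretin library 1) to 7324 genes (without dnTGFB library 3) with 1 library left out. Of the 18 bile duct markers, 14 passed as higher and 1 as lower. All 6 were also called without those 2 libraries, at 1.47 to 2.58.

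In females no keratin passed the test in any of the 4 comparisons between groups, and none of the 19882 genes did (0% called in each). Leaving out female WT secretin library 1 raised the count for WT secretin against WT to 5441 genes, 4 keratins among them, while the other 3 comparisons stayed at 0 whichever library was left out. Without library 1 the WT secretin group held only libraries 2 and 3, both rich in heart transcripts, and the part of these was not tested. At an unadjusted p under 0.05 the edgeR fit held 3859 genes for dnTGFB against WT, 5263 for WT secretin against WT, 3626 for dnTGFB secretin against dnTGFB and 100 for dnTGFB secretin against WT, with 0, 1, 0 and 0 keratins among them. DESeq2 called 0, 1, 0 and 0 keratins, and limma-voom 0 in each. The female libraries of a group differed widely. Krt8 had 159.9, 1123 and 742 CPM in dnTGFB secretin libraries, 325, 164 and 830.4 CPM in dnTGFB, 572, 27.2 and 57.3 CPM in WT secretin and 637, 148 and 735 CPM in WT. Krt19 had 50.8, 179.9 and 157 CPM in dnTGFB secretin, 115, 73.1 and 345 CPM in dnTGFB, 137, 17.4 and 27.8 CPM in WT secretin and 249.8, 45.5 and 133 CPM in WT. Krt7 had 21.8, 56.9 and 53.5 CPM in dnTGFB secretin, 29.8, 16.5 and 73.9 CPM in dnTGFB, 46.9, 8.39 and 12.0 CPM in WT secretin and 59.3, 20.2 and 44.4 CPM in WT. Every group overlapped the others for these 3 genes, and each had at least 1 library far below its highest.

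Low values of the 5 keratins other than Krt20 came in the same female libraries. In the 4 libraries rich in heart transcripts, Krt8 was 27.2 to 325 CPM, Krt18 23.8 to 225 CPM, Krt19 17.4 to 115 CPM, Krt7 8.39 to 29.8 CPM and Krt23 1.51 to 12.6 CPM. In the 6 female libraries outside these 4 and outside female WT 2 and dnTGFB secretin 1, Krt8 was 572 to 1123 CPM, Krt18 431 to 795 CPM, Krt19 133 to 345 CPM, Krt7 44.4 to 73.9 CPM and Krt23 21.1 to 38.7 CPM. These ranges do not overlap for the 5 genes, but Krt20 overlapped (0.061 to 0.917 CPM in the heart-rich libraries and 0.660 to 2.11 CPM in the 6). Epcam separated as the 5 did, at 7.14 to 63.5 CPM in the heart-rich libraries and 132 to 205 CPM in the 6. The share of all genes that separate in this way was not computed, so the separation is not shown to be particular to keratins. Female dnTGFB secretin library 1 and WT library 2, which are not heart-rich, were also low, with Krt8 at 159.9 and 148 CPM and Krt7 at 21.8 and 20.2 CPM, inside the heart-rich range. The bile duct marker sum was 181 to 1777 CPM in the 4 heart-rich libraries. How far other-tissue RNA accounts for the low keratin values was not tested. Without the 4 libraries no keratin was called either, and the log2 change of Krt8 for dnTGFB against WT was 0.67, beside -0.21 ± 1.13 with all libraries.

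Krt20 was the member that behaved differently in females. It had 7.11, 1.725 and 1.28 CPM in dnTGFB secretin libraries, 0.917, 0.605 and 2.11 CPM in dnTGFB, 0.660, 0.061 and 0.165 CPM in WT secretin and 1.57, 6.45 and 1.34 CPM in WT. All 3 WT secretin libraries were below all 3 WT libraries, as for 10.4% of genes, but the fold change did not pass (-3.49 ± 1.12, edgeR adjusted p = 0.14; DESeq2 called it). The interaction of secretin and genotype was called for Krt20 alone, at 4.97 ± 1.49 (edgeR adjusted p = 0.0464), where 4.03% of genes passed as higher and 18% in either direction, and 0 to 8171 genes were called with 1 library left out (8171 without WT secretin library 1). Without the 4 heart-rich libraries it was 2.92 (edgeR adjusted p = 0.95).

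The highest Krt20 values, 7.11 CPM in female dnTGFB secretin library 1 and 6.45 CPM in female WT library 2, stood in the same 2 libraries as keratins of stratified epithelium. The other 47 keratin genes summed to 5530 and 5423 CPM there and to at most 619 CPM in the remaining 22 libraries, where Krt20 was 0.061 to 3.83 CPM. Krt14, of basal squamous cells, had 1009 CPM in dnTGFB secretin library 1 and 1001 CPM in WT library 2, and Krt13, of upper squamous layers, had 924 and 896 CPM. In the same 2 libraries Krt20 took 1.63% and 1.57% of the 6-keratin pool, against 0.028% to 0.143% elsewhere, and Krt23 took 4.16% and 5.21%, against 0.844% to 3.05%. A list of 10 stratified squamous markers summed to 3901 and 3819 CPM there, all 10 of them detected. Female dnTGFB secretin library 1 also had the highest sums of the 24 libraries for 2 other lists. These were placental trophoblast markers (463 CPM, median 6.66 CPM) and pancreatic acinar markers (1538 CPM, median 174 CPM). The part of squamous or any other tissue in these Krt20 and Krt23 values was not tested. In male dnTGFB secretin libraries, where Krt20 was 3.06 to 3.83 CPM, the squamous sum was 62 to 76 CPM. It was 55 to 509 CPM in male dnTGFB libraries and 82 to 484 CPM in male WT libraries. A list of 11 gastric and intestinal markers had its highest sum of the 24 libraries, 136 CPM, in male dnTGFB secretin library 1 (median 59.5 CPM). The part of either tissue in these male Krt20 values was not tested.

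**Figure D5:**
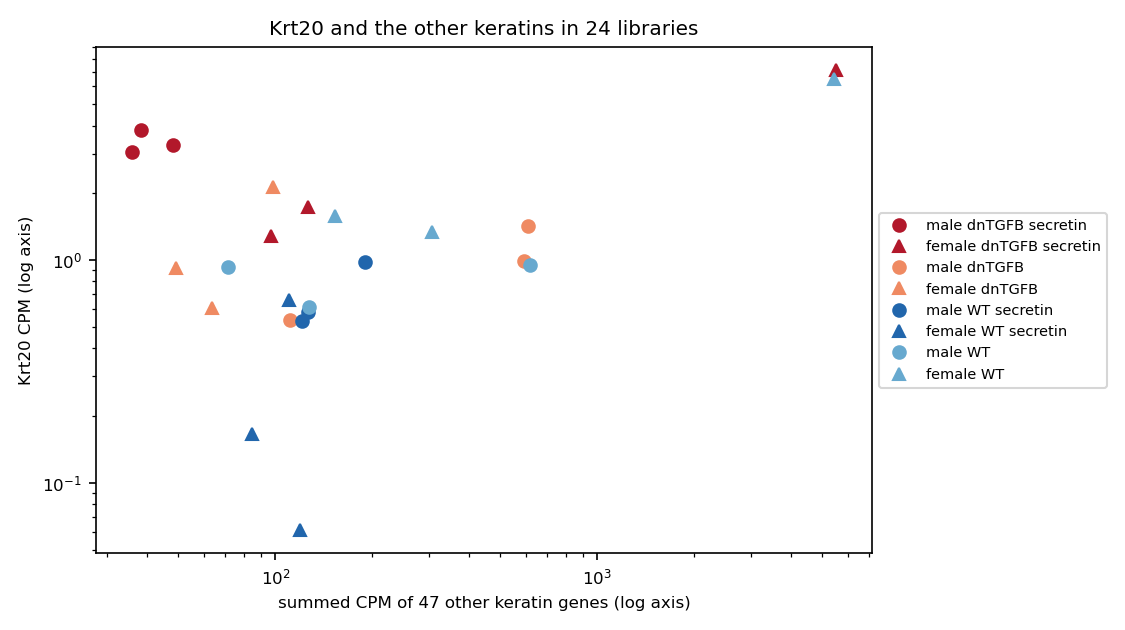
Krt20 level against the summed level of the 47 other keratin genes in 24 libraries, both in CPM on log axes; circles are male and triangles female libraries. Female dnTGFB secretin library 1 and female WT library 2 stand alone at the upper right, with sums of 5530 and 5423 CPM, and the male dnTGFB secretin libraries have Krt20 at 3.06 to 3.83 CPM with sums of 36 to 48 CPM.

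Tests of the difference between the sexes called no keratin, for dnTGFB against WT, for secretin in WT or for secretin in dnTGFB, where 6.86%, 0% and 7.75% of 20222 genes were called by edgeR. At an unadjusted p under 0.05 there were 0, 1 and 2 keratins, and DESeq2 called 0, 1 and 1. The male minus female difference in the log2 effect of secretin in dnTGFB was 2.75 ± 1.00 for Krt19 (edgeR adjusted p = 0.089), 1.88 ± 0.83 for Krt7 (0.153) and 1.26 ± 1.23 for Krt8 (0.533). The keratin changes called in males are therefore not shown to differ from those in females.

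Some of the genes that hold keratin filaments at cell junctions changed in the same male comparisons. Of 14 desmosome, plakin and keratin-organising genes tested, 4 fell in male dnTGFB against WT, where 8.46% of all genes did, with a list median of -0.37. Dsg2, the desmosomal cadherin of simple epithelia, fell by 1.28 ± 0.15 on the log2 scale (edgeR adjusted p = 0.00209), Pkp3, a desmosomal plaque protein, by 1.09 ± 0.29, Jup (plakoglobin) by 0.52 ± 0.16 and Pnn (pinin) by 0.51 ± 0.15. With secretin in dnTGFB 6 of the 14 rose (10.1% of all genes did), the same 4 among them, with a median of 0.60: Dsg2 by 1.56 ± 0.15 (edgeR adjusted p = 0.000148), Pkp3 by 1.76 ± 0.30, Jup by 0.94 ± 0.16 and Pnn by 0.76 ± 0.15. In male WT mice 1 of the 14 passed with secretin, beside 6.22% of all genes: Dsg2, which rose by 0.55 ± 0.15 (edgeR adjusted p = 0.0498). In females none of the 14 was called between groups, with 3, 3, 3 and 0 at an unadjusted p under 0.05, beside the 3859, 5263, 3626 and 100 of 19882 genes given above.

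Transcription factors known to act on simple-epithelium genes were also measured, some of them also bile duct markers. Of 18 tested, 7 fell in male dnTGFB against WT (8.46% of all genes did), with a median of -0.76. Elf3, an epithelial ETS factor, fell by 1.90 ± 0.28 (edgeR adjusted p = 0.00407), Sox9, the biliary fate factor, by 1.10 ± 0.20 and Ets2, another ETS factor, by 1.11 ± 0.27. With secretin in dnTGFB 8 rose (10.1% of all genes), with a median of 1.04, and Elf3 rose by 2.54 ± 0.28 (edgeR adjusted p = 0.000334), Sox9 by 2.09 ± 0.21 and Klf5, an epithelial zinc finger factor, by 1.58 ± 0.25. With secretin in WT 2 fell (2.67% of all genes), Elf3 by 1.30 ± 0.27 (edgeR adjusted p = 0.0178) and Ets2 by 1.16 ± 0.27.

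The genes whose pattern was most like each keratin over the 24 libraries were found by the SD of the log2 ratio, among 11950 protein-coding genes with a mean of at least 5 CPM. Krt8 and Krt18 were each other's closest gene, with an SD of 0.107. After each other, both were closest to Epcam (0.301 for Krt8, 0.303 for Krt18), Atf3, a stress-response factor (0.306 and 0.310), and Cdh1, E-cadherin (0.332 and 0.333). Krt19 was closest to Cd24a, a surface marker of ducts (0.223), then Tspan8, a tetraspanin (0.284), and Slc44a4, a choline transporter-like protein (0.292). Krt7 was closest to Spint2, an epithelial protease inhibitor (0.224), then Arrdc1 (0.235) and Plpp2, a lipid phosphatase (0.236), and Krt23 to Kcne3, a potassium channel subunit (0.236), and Ocln, occludin (0.261). The libraries share the swings in bile duct content and depth described above, and Krt20 was too low to be ranked.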

How the data were processed

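RNA from 24 libraries of pooled mouse cholangiocytes (8 groups of 3) was analysed. The authors deposited whole-number read counts for 49315 Ensembl genes in each library; the labels name no aligner, counter or strand setting, so antisense reads cannot be told apart, and reads shared with the pseudogene Krt8-ps (at most 239 counts in a library) are uncertain. GRCm38 was worked out from the coordinates, of which 44772 genes have the same in GENCODE M21, and symbols came from M21. Groups were taken from the titles. The 6 keratins and the gene lists were chosen with earlier results of these data known.

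Counts were tested with edgeR 4.0.16 (R 4.3.3) by the quasi-likelihood F test with TMM scaling and group-wise filtering, all 4 groups of a sex in 1 fit, and 24 libraries in 1 fit for sex differences. The threshold was a Benjamini-Hochberg adjusted p of 0.05, with no minimum fold. SEs are the log2 fold change over the square root of F. Levels are TMM-scaled CPM. Genes named from a list are up to 4 with the smallest adjusted p, and some genes that this rule or the likeness ranking names are not reported here; Sctr, Cftr and Ddx3y were chosen after their values were seen. Within a group, each library differed from its closest fellow by a chi-square of 1.10 to 78.4 per gene, so libraries of a group often differed, and all were kept apart. Alternatives were DESeq2 1.42.0, limma-voom 3.58.1, other scalings and filters, and left-out libraries. Of the fits, only edgeR for male dnTGFB against WT was tried on simulated counts. These gave all genes the same spread and held no outlying libraries, so they do not cover the libraries that stood apart.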

Additional observations from a re-analysis of the deposited data

Results flagged for a closer look

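In males the effect of secretin differed between dnTGFB and WT mice for each of the 6 keratins, by the interaction term itself. The log2 difference was 2.26 for Krt7 (1.96 with secretin in dnTGFB and -0.30 in WT), 2.59 for Krt8 (1.84 and -0.75), 2.79 for Krt18 (1.89 and -0.90), 2.59 for Krt19 (2.24 and -0.35), 1.87 for Krt20 (1.59 and -0.29) and 1.51 for Krt23 (1.69 and 0.18). The 6 values rest on the same 12 libraries and are not independent of each other. In females the interaction was called for Krt20, at 4.97 on the log2 scale, from 7.11, 1.725 and 1.28 CPM in dnTGFB secretin libraries, 0.917, 0.605 and 2.11 CPM in dnTGFB, 0.660, 0.061 and 0.165 CPM in WT secretin and 1.57, 6.45 and 1.34 CPM in WT. The 7.11 and 6.45 CPM stood in the 2 libraries rich in squamous keratins. Heart-rich libraries held the 0.917 and 0.605 CPM of dnTGFB and the 0.061 and 0.165 CPM of WT secretin. The part of these or other tissues was not tested. This interaction was not called with library totals, limma-voom or the replicate block.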

How the results depend on the processing

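The 19 called keratin values kept their sign in all 389 alternatives and were no longer called in 60 of them; of the 59 uncalled values, 32 changed sign in at least 1 alternative and 24 crossed the threshold. Fitting only the libraries of a pair gave 0 called keratins for male dnTGFB against WT, 1 for dnTGFB secretin against dnTGFB, 2 for WT secretin against WT and 4 for dnTGFB secretin against WT. DESeq2 gave 1 for male WT secretin against WT, 1 for female WT secretin against WT and 1 for each sex difference of secretin. Another set of fits left out male WT library 1, male dnTGFB library 3 and the 4 heart-rich female libraries. In it, males gave 4 for WT secretin against WT and 5 for dnTGFB secretin against WT. Its sex differences rest on 1 library each in female WT secretin and female dnTGFB, so no count is given. Without the 4 libraries near those of another group, the sex difference of secretin in WT gave 6. A filter of at least 5 CPM left Krt20 out and gave 0 for male dnTGFB secretin against WT. The female interaction gave 0 with library totals, limma-voom, no filter, the strict filter, the replicate block and either set of libraries left out. Leaving out each library in turn gave, in males, 3 to 5 for dnTGFB against WT (3 without WT library 2 or 3), 5 to 6 for dnTGFB secretin against dnTGFB, 0 to 3 for WT secretin against WT (3 without dnTGFB library 3), 0 to 5 for dnTGFB secretin against WT (5 without dnTGFB library 3, 0 without dnTGFB secretin library 3) and 4 to 6 for the interaction. In females it gave 0 to 4 for WT secretin against WT and for the interaction (4 without WT secretin library 1), 0 to 0 for the other 3 comparisons, and for the sex differences 0 to 0 for dnTGFB against WT, 0 to 2 for secretin in WT and 0 to 1 for secretin in dnTGFB. The cause of these changes was not tested, beyond the fewer genes or libraries that some of them use. Same-numbered libraries deviated together in some pairs and apart in others (correlations -0.31 to 0.30 in males, -0.92 to 0.93 in females). In each sex 5 of 18 such pairs were over 0.1. With 3 libraries per group this cannot decide whether the numbers mark a batch or a pairing. With the replicate block 4, 0, 6 and 1 keratins were called in the male comparisons (dnTGFB against WT, WT secretin against WT, dnTGFB secretin against dnTGFB, dnTGFB secretin against WT) and 5 in the interaction. Scaling by library totals shifted the median of all genes by -0.44 for male dnTGFB against WT (1011 higher and 4212 lower genes, against 1606 and 1589 with TMM) and by 0.75 for dnTGFB secretin against dnTGFB (6689 and 837, against 1900 and 2337), and left 5 and 6 keratins called. The Krt7 share of the pool was 1.553% with the longest coding transcript, a length chosen after the data were seen. Depth limits Krt20 most, with 1 to 164 counts per library.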

Other observations

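Intermediate filaments of other cell types moved in both directions. Of 10 tested in males, Nes (nestin, of progenitor and endothelial cells) fell by 1.48 ± 0.20 in dnTGFB against WT, while Nefl, of neurons, rose by 4.35 ± 0.75 and Gfap, of glia, by 2.66 ± 0.73 on the log2 scale. The sum of 6 neuron markers was 596, 527 and 3861 CPM in male dnTGFB libraries and 85 to 99 CPM in male WT libraries, and its part was not tested. With secretin in male dnTGFB, Nefl fell by 2.76 ± 0.69 and Des (desmin, of muscle) by 1.90 ± 0.51. In male WT mice given secretin Prph (peripherin, of peripheral neurons) rose by 1.81 ± 0.37.

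Keratins of stratified epithelium and hair were mostly lower with secretin in male dnTGFB mice. Of 25 tested, 16 fell and 1 rose in male dnTGFB secretin against dnTGFB, where 22.6% of all genes were called in either direction. Krt14 fell by 4.18 ± 0.92 and Krt16 by 4.07 ± 0.89, while Krt87 rose by 3.73 ± 0.58. With secretin in male WT none of the 25 was called, and their log2 changes went in both directions. The 1 at an unadjusted p under 0.05, Krt80, rose by 1.22 ± 0.52, while Krt14 was at -0.93 ± 0.81 and Krt13 at -1.25 ± 0.94. The summed level of the 47 other keratin genes was 36 to 48 CPM in male dnTGFB secretin libraries and 593, 607 and 111 CPM in male dnTGFB libraries. Male WT library 1 was at 619 CPM and male WT libraries 2 and 3 at 127 and 71 CPM. In females 18 of 31 passed as higher and 1 as lower in the interaction of secretin and genotype. Of all genes there, 4.03% passed as higher and 18% in either direction.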
